A study of Mus musculus with 7 samples.

Results

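The genes described here are the aminoacyl-tRNA synthetases, the enzymes that load each transfer RNA (tRNA) with its amino acid, together with 2 scaffold proteins that hold several of them in a complex. The members were a fixed list of 38 symbols, matched by name to the gene entries of the deposited expression tables. All 38 were found among 24726 entries. They comprised 20 genes for cytosolic enzymes or their subunits, 16 for mitochondrial enzymes (symbols ending in 2) and the scaffolds Aimp1 and Aimp2.

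The libraries come from 5 samples of B-cell acute lymphoblastic leukaemia (B-ALL) in C57BL/6 mice. The 3 Pax5-Etv6 B-ALL libraries carry the Pax5-Etv6 fusion on 1 Pax5 allele and lack 1 copy of Cdkn2a-Cdkn2b (Cdkn2ab+/-Pax5Etv6/+), and were made from whole lymph node taken directly from the animal. The 2 control B-ALL libraries lack Trp53, carry 1 activated Nras allele and received Myc by retrovirus (Trp53-/- NrasG12D/+Retroviral-Myc), and derive from whole bone marrow that was cultured for a short time. The comparison asks how leukaemias with the fusion differ from a B-ALL of another origin, and genotype cannot be told apart from tissue, culture or cDNA protocol, which differ between the groups in the same way. Ages are not labelled, nor is it labelled whether a group's libraries are from different mice, so the p-values reflect only the spread of these samples, which may be technical.

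Transfer RNAs are charged in 2 compartments. The cytosolic enzymes serve the ribosomes that translate nuclear messages, and the mitochondrial enzymes, also encoded in the nucleus and imported, serve the ribosomes that translate the few messages of mitochondrial DNA. Most amino acids have a separate enzyme for each compartment, whereas Gars (glycine) and Kars (lysine) each make both forms from 1 gene, and Eprs joins the glutamate and proline activities in 1 protein. Uncharged tRNA activates the kinase Gcn2 (Eif2ak4), which raises translation of the factor Atf4, and several cytosolic synthetase genes are known Atf4 targets. Growth driven by Myc is likewise known for raised expression of the translation machinery.

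Levels are given as TPM, a transcript abundance scaled by gene length that can be compared between genes. Reads recovered from the TPM values totalled 20110795 to 30103488 in the Pax5-Etv6 libraries and 28740630 and 50994959 in the controls, as lower bounds. Every member had at least 156 recovered reads in each library, and the highest had 41059. As a check on the labels, Trp53 had 486, 454 and 490 TPM against 11.3 and 20.5 TPM in the controls, and Myc had 341, 387 and 286 TPM against 1544 and 2095 TPM. Etv6 had 35.8, 39.9 and 41.1 TPM against 12.3 and 12.1 TPM (adjusted p = 0.00132, limma). Cdkn2a had 15.0, 53.0 and 18.4 TPM against 426 and 558 TPM (adjusted p = 0.00143, limma). Nras, Pax5 and Cdkn2b were not called (adjusted p = 0.494, 0.882 and 0.542, limma). All 10 B-lineage markers were detected, with summed levels of 6590 to 10700 TPM against 2950 and 3730 TPM. Markers of other cells were higher in the Pax5-Etv6 libraries: 10 macrophage markers summed to 121 to 522 TPM against 18.2 and 52.7 TPM, and 7 neutrophil markers to 30.5 to 250 TPM against at most 0.487 TPM. The 7 stromal and endothelial markers summed to 313 to 996 TPM against 80.5 and 91.7 TPM, of which Pecam1 made up most in the controls, and without it the other 6 summed to 79.9 to 774 against 3.53 and 11.7 TPM. The 8 T-cell markers summed to 4.99 to 37.4 TPM against at most 0.334 TPM, with Cd3d, Cd3e and Cd3g below 1 TPM in every library. The 6 erythroid markers summed to 13.3 to 76.0 TPM against at most 1.08 TPM, with Hba-a1 and Hbb-b1 listed at 0 throughout. The part of these cells in the values below was not tested, and in bulk samples fewer cells of a type and less RNA per cell cannot be told apart.

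Cytosolic synthetases were lower in Pax5-Etv6 B-ALL in 15 of 20 genes, and the mitochondrial enzymes split into 7 that were lower, 2 that were higher and 7 that were not called. The largest falls were in Farsb, Lars and Eprs among the cytosolic genes and in Mars2 and Nars2 among the mitochondrial ones. Calls are those of limma on log2(TPM + 1), at an adjusted p (Benjamini-Hochberg) below 0.05 over the 11805 genes that reached 1 TPM in 2 or more libraries. All 38 members passed this filter. Of all tested genes 29.7% were called lower and 21.9% higher, so that 75% of cytosolic and 43.8% of mitochondrial synthetases called lower stand against that background. The median log2 fold change, Pax5-Etv6 minus control, was -0.71 over the cytosolic genes, -0.16 over the mitochondrial genes and -0.11 over all tested genes. No cytosolic gene was called higher with all 5 libraries.

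**Figure D1:**
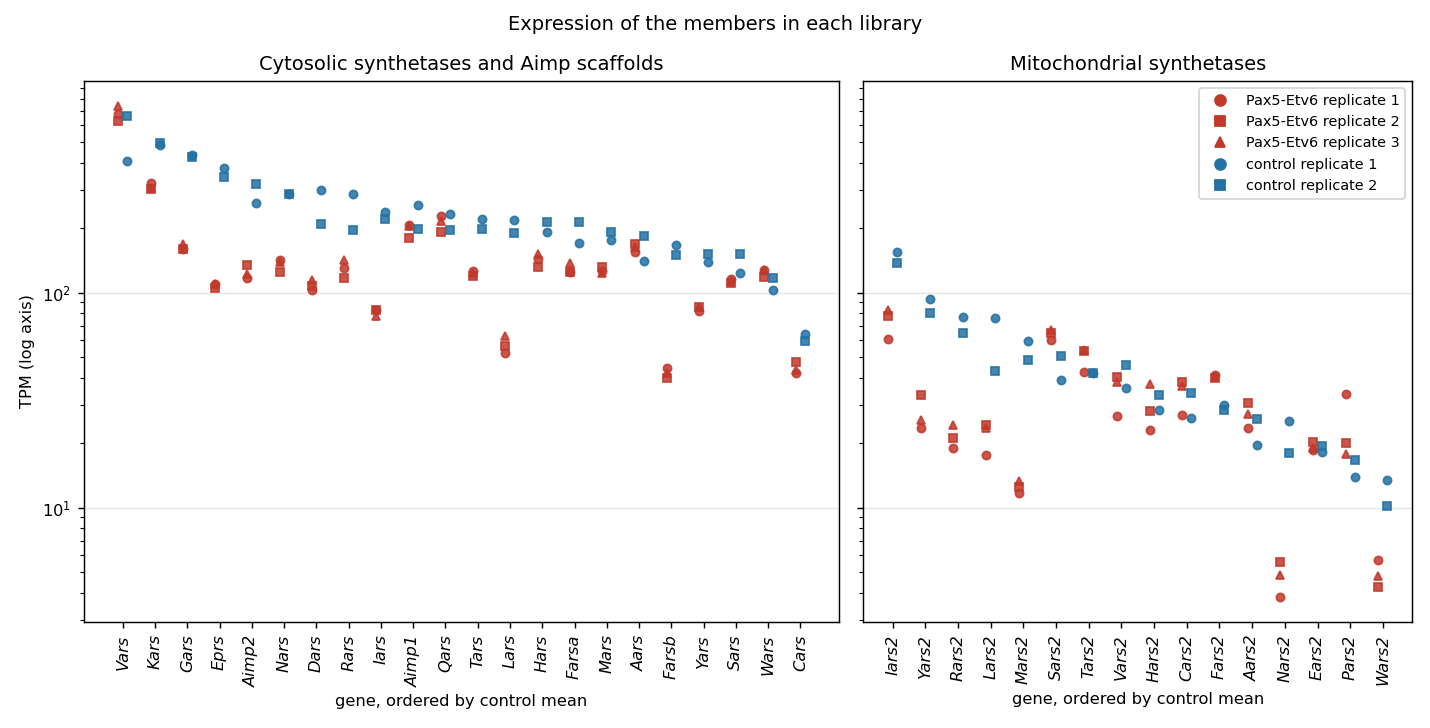
TPM of each member in each library, on a log axis, with 1 point per library, Pax5-Etv6 B-ALL in red and control B-ALL in blue. Most cytosolic genes have both control points above all 3 Pax5-Etv6 points, with Vars, Wars, Aars and Qars as exceptions, while the mitochondrial panel holds genes of both kinds.

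The cytosolic genes with the largest falls lay far outside the spread within either group. Farsb, the beta subunit of the phenylalanine enzyme, had 44.5, 40.0 and 42.3 TPM in Pax5-Etv6 B-ALL and 167 and 150.4 TPM in the controls. No Pax5-Etv6 library came near either control, and the mean was 3.76-fold higher in the controls (log2 fold change -1.88 ± 0.15 SE, limma adjusted p = 0.000539). Lars, for leucine, had 52.5, 56.4 and 63.0 TPM against 219 and 190.0 TPM (-1.82 ± 0.16, adjusted p = 0.000608).

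Eprs, the fused glutamate and proline enzyme, had 109.6, 105 and 110.0 TPM against 379 and 347 TPM (-1.74 ± 0.13, adjusted p = 0.000508). Its 3 Pax5-Etv6 values lay within a few TPM of one another. Iars, for isoleucine, had 82.9, 83.2 and 77.8 TPM against 237 and 221 TPM (-1.48 ± 0.13, adjusted p = 0.000668). Gars, for glycine in both compartments, had 159, 159 and 169 TPM against 436 and 429 TPM (-1.41 ± 0.13, adjusted p = 0.000666). In each of these the lower control was more than 2-fold above the highest Pax5-Etv6 library.

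Dars, for aspartate, was the sixth of the largest falls, with 103, 107 and 114 TPM against 299.5 and 208 TPM (-1.20 ± 0.19, adjusted p = 0.00321). Its controls differed more from each other than its Pax5-Etv6 libraries did, and still did not overlap them. The asparagine enzyme Nars fell by 1.08 on the log2 scale, so that 7 of the 15 lower cytosolic genes fell by 2-fold or more. The remaining 8 fell less, from Rars for arginine (-0.87) through Yars for tyrosine (-0.76), Tars for threonine (-0.76), Kars for lysine (-0.66), Farsa (-0.57), Mars for methionine (-0.53) and Hars for histidine (-0.51) to Cars for cysteine (-0.47). The 2 subunits of the phenylalanine enzyme thus changed by different amounts. Farsa had 124, 124 and 137 TPM against 171 and 213 TPM, a far smaller gap than that of Farsb.

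The smaller falls were the less firm ones. The call of Cars (adjusted p = 0.0439) was lost when any 1 of the 5 libraries was left out (adjusted p = 0.0535 to 0.128). Hars (adjusted p = 0.0222) lost its call without Pax5-Etv6 replicate 2 (0.0992) or 3 (0.052) or control replicate 2 (0.0608). Farsa (adjusted p = 0.0223) lost it without Pax5-Etv6 replicate 2 (0.0798) or control replicate 2 (0.0654), Mars (adjusted p = 0.0163) without Pax5-Etv6 replicate 2 (0.0587) or 3 (0.0652), and Rars (adjusted p = 0.0122) without control replicate 1 (0.0521). The other 10 lower cytosolic genes kept their call in each of these limma fits.

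**Figure D2:**
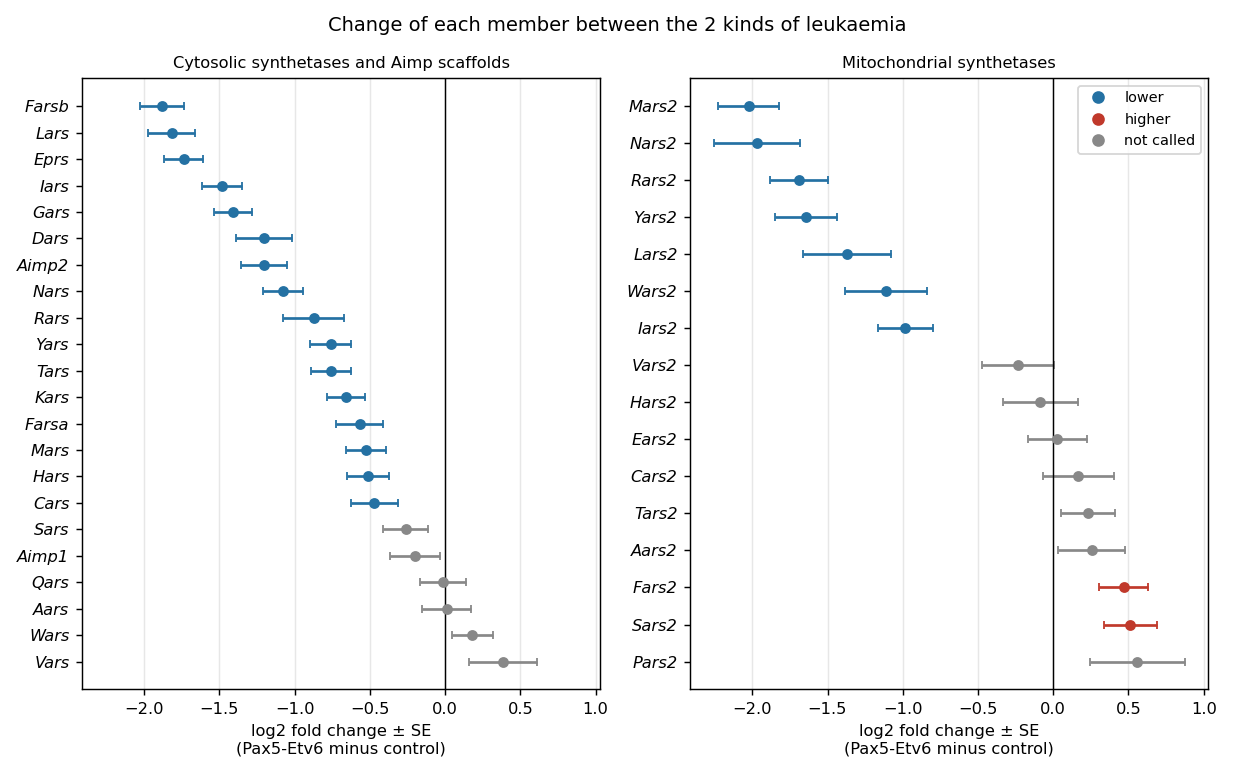
Log2 fold change of each member (Pax5-Etv6 minus control, on log2(TPM + 1)) with its SE, coloured by call at an adjusted p under 0.05. Cytosolic genes run from -1.88 (Farsb) to 0.38 (Vars), and mitochondrial genes from -2.02 (Mars2) to 0.56 (Pars2) with a gap between Iars2 and Vars2.

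Aars, Qars, Sars, Vars and Wars were the 5 cytosolic genes not called. Vars, for valine, was the highest of all members in both groups, with 674, 631 and 741 TPM against 411 and 663 TPM. Its controls differed widely and control replicate 2 lay inside the Pax5-Etv6 range (0.38 ± 0.23, adjusted p = 0.193). Without that library Vars was called higher (0.73, adjusted p = 0.0206). Wars, for tryptophan and known to be induced by interferon-gamma, had 127, 118 and 128 TPM against 103 and 117 TPM, with no overlap but a small difference (0.18 ± 0.14, adjusted p = 0.305). Of 14 tested interferon-gamma response genes in the same limma fit, 13 were called higher (92.9%, against 21.9% of all tested genes). They were led by the guanylate-binding proteins Gbp7 (6.03 ± 0.42, adjusted p = 0.000429) and Gbp2. The latter, tagged as overlapping, had 19.0, 22.8 and 38.3 TPM against 0.255 and 0.666 TPM (adjusted p = 0.000643). Aars, for alanine, stood at 162 ± 7.15 TPM (SD, n = 3) and 162 ± 30.3 TPM (SD, n = 2), and Qars, for glutamine, at 211 ± 17.5 and 214 ± 25.8 TPM. Their log2 fold changes were 0.01 ± 0.16 and -0.01 ± 0.15 (adjusted p = 0.966 and 0.944). Sars, for serine, was slightly lower (-0.26 ± 0.15, adjusted p = 0.178).

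Because these genes moved by such different amounts, their order changed between the groups. In control B-ALL, Eprs had the fourth highest mean of the 38 members and Gars the third. In Pax5-Etv6 B-ALL Eprs ranked 16 and Gars ranked 5, while Qars ranked 3 rather than 11 and Aars ranked 6 rather than 17, with nearly equal means in both groups. The highest cytosolic mean was 16.2 times the lowest in Pax5-Etv6 B-ALL and 8.66 times the lowest in the controls. Many neighbours in this order, such as Gars and Aars in Pax5-Etv6 B-ALL (162 ± 5.69 and 162 ± 7.15 TPM), lay within the SD of each other.

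Promoter windows are shown for a few cytosolic genes with different changes, and for Mars2 as the mitochondrial gene with the largest fall, so that the letters can be read beside the values above. The windows are RefSeq promoters of build GRCm38.p6, from 250 bases before to 50 bases after the gene start, and 29 of the 38 members matched one (13 cytosolic, 14 mitochondrial, both scaffolds). Both strands were searched for CACGTG, the E-box that Myc and its partner Max can bind, and for TGATGNAA, a form of the composite element bound by Atf4 with C/EBP proteins. Capitals mark matches to these 2 motifs, and only bases before the start are printed, 5′ to 3′ on the strand of the gene. Every cytosolic window printed holds such a match, so these are not a sample of the cytosolic windows. The cytosolic windows with neither motif (Dars, Eprs, Farsa, Kars, Mars, Qars and Sars) are not printed.
Farsb, chr1:78488898-78488997, minus strand: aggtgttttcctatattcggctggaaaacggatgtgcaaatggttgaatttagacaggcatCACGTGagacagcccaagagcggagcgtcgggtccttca
Iars, chr13:49682030-49682129, plus strand: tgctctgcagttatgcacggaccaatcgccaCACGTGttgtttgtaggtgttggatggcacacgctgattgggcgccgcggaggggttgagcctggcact
Gars, chr6:55037901-55038000, plus strand: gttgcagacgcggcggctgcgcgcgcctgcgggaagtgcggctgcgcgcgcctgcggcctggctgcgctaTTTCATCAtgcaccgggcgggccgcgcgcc
Tars, chr15:11399659-11399758, minus strand: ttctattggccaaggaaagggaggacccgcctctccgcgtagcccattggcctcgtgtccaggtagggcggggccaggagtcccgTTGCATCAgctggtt
Aars, chr8:111033682-111033781, plus strand: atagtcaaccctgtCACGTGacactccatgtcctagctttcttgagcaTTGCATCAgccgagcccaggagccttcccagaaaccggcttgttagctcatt
Mars2, chr1:55237077-55237176, plus strand: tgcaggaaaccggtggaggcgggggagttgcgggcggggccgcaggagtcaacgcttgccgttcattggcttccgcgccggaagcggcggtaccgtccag

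The stretch of Aars ends 61 bases before its start and the other 5 stretches end at the start. The composite element matched in 5 of 13 cytosolic windows (38.5%: Aars, Gars, Iars, Tars and Yars), in none of 14 mitochondrial windows and in 4.51% of 27025 genes with a window. The E-box matched in 4 of 13 cytosolic windows (30.8%: Aars, Farsb, Iars and Tars), in 1 of 14 mitochondrial windows (Ears2) and in 8.09% of all genes. Some matches lie after the start and are not printed, such as the composite element of Iars and the E-box of Tars. Matches were found in called and in uncalled genes. The composite element matched in 4 of 18 members called lower (22.2%) and in 1 of 11 members not called lower (9.09%). For the E-box these were 3 of 18 (16.7%) and 2 of 11 (18.2%). Whether a match goes with a change was not tested. A further pair of motifs was searched. TTCNNNGAA, the core that STAT factors bind, was found in 3 of 29 member windows (10.3%) and 9.55% of all, and a loose form of the interferon-stimulated response element (GAAA, any 2 bases, GAAA) in 1 of 29 (3.45%, Qars) and 3.99% of all. The composite element and the E-box do not share letters where both matched in Aars. A match is a description of the letters and not evidence of binding.

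The mitochondrial enzymes fell into those that changed strongly and those that did not. Mars2, for methionine, had 11.7, 12.5 and 13.3 TPM in Pax5-Etv6 B-ALL and 59.8 and 48.6 TPM in the controls (-2.02 ± 0.20, limma adjusted p = 0.000892). This was the largest fall of any member in log2(TPM + 1). Nars2, for asparagine, was the lowest member in Pax5-Etv6 B-ALL, with 3.83, 5.57 and 4.83 TPM against 25.4 and 17.9 TPM (-1.97 ± 0.29, adjusted p = 0.00257). These values rest on 156, 190 and 238 recovered reads against 1985 and 823. In mean TPM the fall of Nars2 was the larger, 4.56-fold against 4.33-fold for Mars2. Rars2, for arginine, had 19.0, 21.0 and 24.1 TPM against 77.4 and 64.7 TPM (-1.69 ± 0.19, adjusted p = 0.00128).

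Yars2, for tyrosine, had 23.4, 33.4 and 25.5 TPM against 93.7 and 80.5 TPM (-1.64 ± 0.21, adjusted p = 0.00173). Lars2, for leucine, had 17.5, 24.3 and 23.3 TPM against 76.0 and 43.1 TPM (-1.37 ± 0.29, adjusted p = 0.00953). The controls of Lars2 lay far apart, and without control replicate 1 its call was lost (-0.97, adjusted p = 0.0531). Wars2, for tryptophan, had 5.68, 4.29 and 4.80 TPM against 13.5 and 10.2 TPM (-1.11 ± 0.27, adjusted p = 0.0154), and its call was lost without Pax5-Etv6 replicate 2 (0.0588) or control replicate 1 (0.095). The isoleucine enzyme Iars2 was the highest mitochondrial member in both groups, with 60.8, 77.7 and 83.4 TPM against 155 and 138 TPM (-0.98 ± 0.18, adjusted p = 0.0059). In all 7 genes, which were picked by their call, the 3 Pax5-Etv6 libraries lay below both controls. Over all 16 mitochondrial members the groups did not overlap in 11, against 72.2% of all tested genes.

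Sars2 and Fars2 were the 2 mitochondrial genes called higher, both by a small margin. Sars2, for serine, had 60.3, 64.8 and 66.9 TPM against 39.1 and 50.9 TPM (0.51 ± 0.18, adjusted p = 0.0494). Fars2, for phenylalanine, had 41.5, 40.0 and 41.1 TPM against 30.0 and 28.5 TPM (0.47 ± 0.16, adjusted p = 0.0498). The groups did not overlap in either gene, as was also true of 72.2% of all tested genes. The call of Fars2 was lost when any 1 library was left out (adjusted p = 0.0759 to 0.167), and that of Sars2 without Pax5-Etv6 replicate 1 (0.0639), 2 (0.149) or 3 (0.141) or control replicate 1 (0.166).

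Aars2, Cars2, Ears2, Hars2, Pars2, Tars2 and Vars2 were not called, with log2 fold changes from -0.23 (Vars2) to 0.56 (Pars2). Pars2, for proline, had 33.9 TPM in Pax5-Etv6 replicate 1, 17.7 TPM in replicate 3 and a value between them in replicate 2, against 13.9 and 16.7 TPM in the controls. Replicate 1 was otherwise often the lowest Pax5-Etv6 library among these genes: it was lowest in 13 of 16 mitochondrial members and in 7 of 20 cytosolic members, and in 56.3% of all tested genes. Within Pax5-Etv6 B-ALL the cytosolic genes varied little, with an SD of at most 9.55% of the mean, against at most 36.6% for the mitochondrial genes (Pars2).

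Synthetases are divided by the fold of the catalytic domain into class I and class II. Of 9 mitochondrial class I genes 6 were called lower and none higher (median -1.11), and of 7 mitochondrial class II genes 1 was called lower and 2 higher (median 0.26). Among cytosolic genes 6 of 9 class I and 8 of 10 class II genes were lower (medians -0.53 and -0.71), leaving out Eprs, which holds a domain of each. Of all tested genes 29.7% were called lower and 21.9% higher. The split by class was made after the values had been seen, has no test, and went in opposite directions in the 2 compartments.

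Several cytosolic enzymes form the multisynthetase complex with Aimp1, Aimp2 and Eef1e1 (Aimp3) as its scaffolds. Of the 8 enzyme genes of the complex, 7 were lower and Qars was not called (median -1.04). Of the 12 cytosolic genes outside it, 8 were lower and 4 were not called (median -0.54). These shares of 87.5% and 66.7% stand against 29.7% of all tested genes called lower, and the difference between them has no test. The scaffolds differed from each other. Aimp2, which holds the complex together, had 117, 135 and 123 TPM against 261 and 319 TPM (-1.20 ± 0.15, adjusted p = 0.00175). Aimp1, which binds the arginine enzyme, had 206, 179.9 and 203 TPM against 256 and 198 TPM, and control replicate 2 lay inside the Pax5-Etv6 range (-0.20 ± 0.16, adjusted p = 0.339). Eef1e1 had 48.0, 58.1 and 43.2 TPM against 288 and 205 TPM (-2.28 ± 0.21, adjusted p = 0.000729). The 3 scaffolds of 1 complex thus ranged from no call for Aimp1 to means of 49.7 ± 7.60 against 246 ± 58.7 TPM for Eef1e1.

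Summed over each class, both the cytosolic and the mitochondrial transcripts were lower in Pax5-Etv6 B-ALL. The 20 cytosolic genes summed to 3087, 2958 and 3190.0 TPM in Pax5-Etv6 B-ALL and 4769 and 4863 TPM in the controls. The 16 mitochondrial genes summed to 439, 515 and 518 TPM against 754 and 700.1 TPM. Both sums were lower in all 3 Pax5-Etv6 libraries, with means of 0.639 and 0.675 of the control means. Vars alone made up 22.2% of the Pax5-Etv6 cytosolic sum, and without it the cytosolic sum averaged 2396 against 4278 TPM, or 0.56 of the control mean. The ratio of the 2 sums was 7.03, 5.75 and 6.16 in Pax5-Etv6 B-ALL and 6.32 and 6.95 in the controls, and the groups overlapped. The median member was lower in both classes as well. The cytosolic median was 126, 119 and 126 TPM in Pax5-Etv6 B-ALL against 219 and 197 TPM in the controls. The mitochondrial median was 23.5, 29.5 and 26.4 TPM against 33.1 and 38.3 TPM. In the ratio of these medians the groups overlapped too. The medians of the log2 fold changes were -0.71 and -0.16, and the difference between them has no test.

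**Figure D3:**
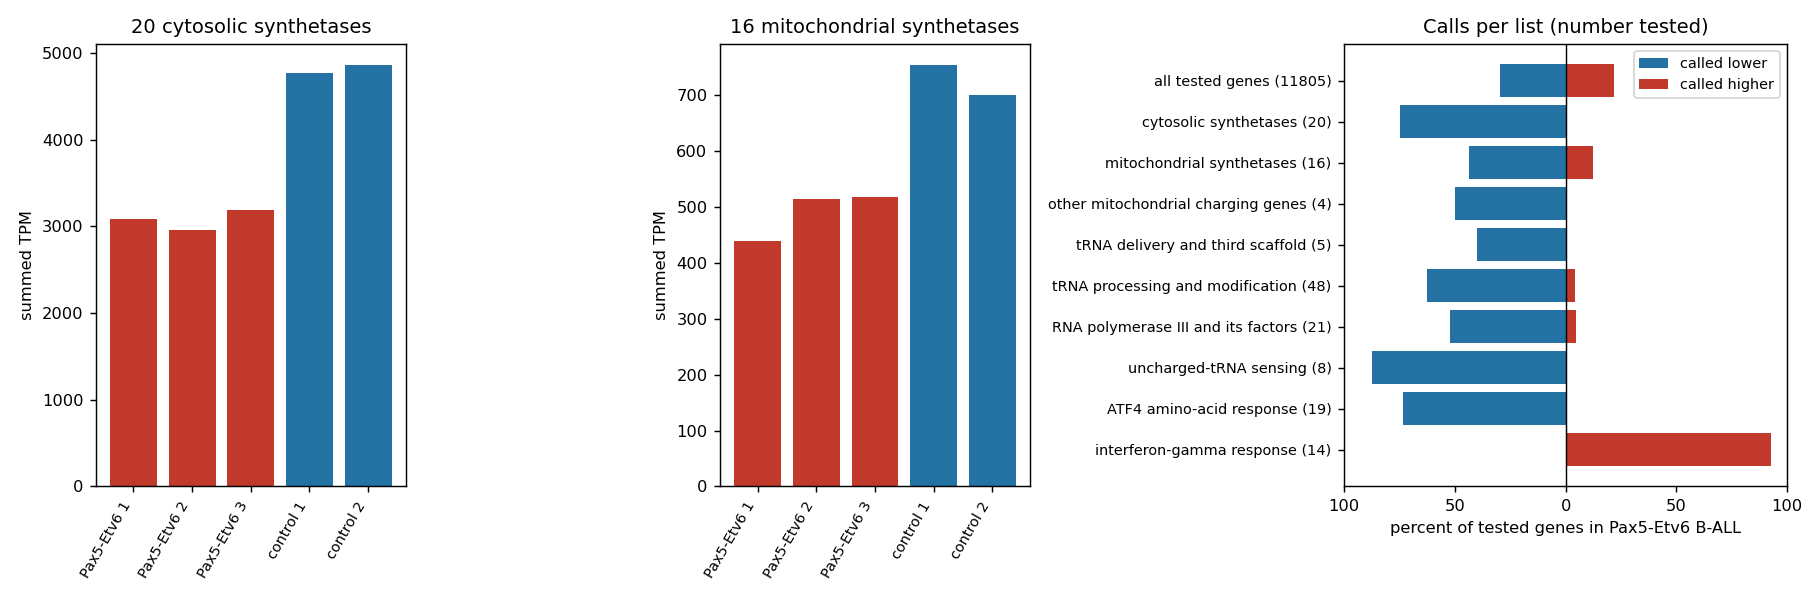
Left and middle, summed TPM of the 20 cytosolic and the 16 mitochondrial synthetases in each library. Right, percent of tested genes called lower (blue) or higher (red) in Pax5-Etv6 B-ALL for all genes, the synthetases and related lists; all lists but the interferon-gamma response lie mostly to the lower side.

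Setting the 2 enzymes of the same amino acid side by side showed changes in both directions. For 16 pairs the difference of log2(TPM + 1), cytosolic minus mitochondrial, was taken within each library, which makes it free of library scaling but for the pseudocount. Eprs enters 2 pairs, with Ears2 and Pars2, and the phenylalanine pair takes Farsa as its cytosolic gene. The cytosolic gene was higher in 79 of 80 pairs by library, the exception being Iars and Iars2 in Pax5-Etv6 replicate 3. With Farsb in place of Farsa it was higher in 78 of 80, since Farsb and Fars2 were nearly equal in the Pax5-Etv6 libraries (differences of 0.098, -0.0010 and 0.039 against 2.44 and 2.36 in the controls). In 10 pairs the difference was smaller in Pax5-Etv6 B-ALL and in 6 it was larger, and the groups did not overlap in 9 and 6 of these. The levels of 72.2% of all tested genes did not overlap either, but that share is of single genes. No such share was computed for differences between 2 genes. With 3 against 2 libraries no test of a single pair was made.

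The pairs that changed most lay at both ends, and the order depends on the phenylalanine subunit: the change was -1.04 for Farsa against Fars2 and -2.35 for Farsb against Fars2, the latter beyond the -2.29 of Eprs against Pars2. Eprs against Pars2 stood at 1.67, 2.33 and 2.57 in Pax5-Etv6 B-ALL and 4.68 and 4.29 in the controls, a drop of the mean ratio of TPM from 24.0 to 4.90. Eprs against Ears2 stood at 2.50, 2.33 and 2.48 against 4.31 and 4.10, and the mean ratio dropped from 19.4 to 5.66. Ears2 itself had 18.5, 20.1 and 18.8 TPM against 18.2 and 19.3 TPM (0.03 ± 0.20, adjusted p = 0.918), so the cytosolic glutamate and proline gene fell while neither mitochondrial counterpart was called.

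The methionine pair moved the other way. Mars against Mars2 stood at 3.33, 3.30 and 3.12 in Pax5-Etv6 B-ALL and 1.55 and 1.95 in the controls. Both genes were lower in Pax5-Etv6 B-ALL, Mars from 184 ± 10.2 to 127 ± 4.33 TPM and Mars2 from 54.2 ± 7.90 to 12.5 ± 0.824 TPM, so that the mean ratio rose from 3.44 to 10.2. For tryptophan the mean ratio of Wars to Wars2 rose from 9.53 to 25.5, and for asparagine that of Nars to Nars2 from 13.6 to 29.4. The leucine pair, in which both enzymes fell, overlapped between groups (1.53, 1.18 and 1.39 against 1.51 and 2.11).

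**Figure D4:**
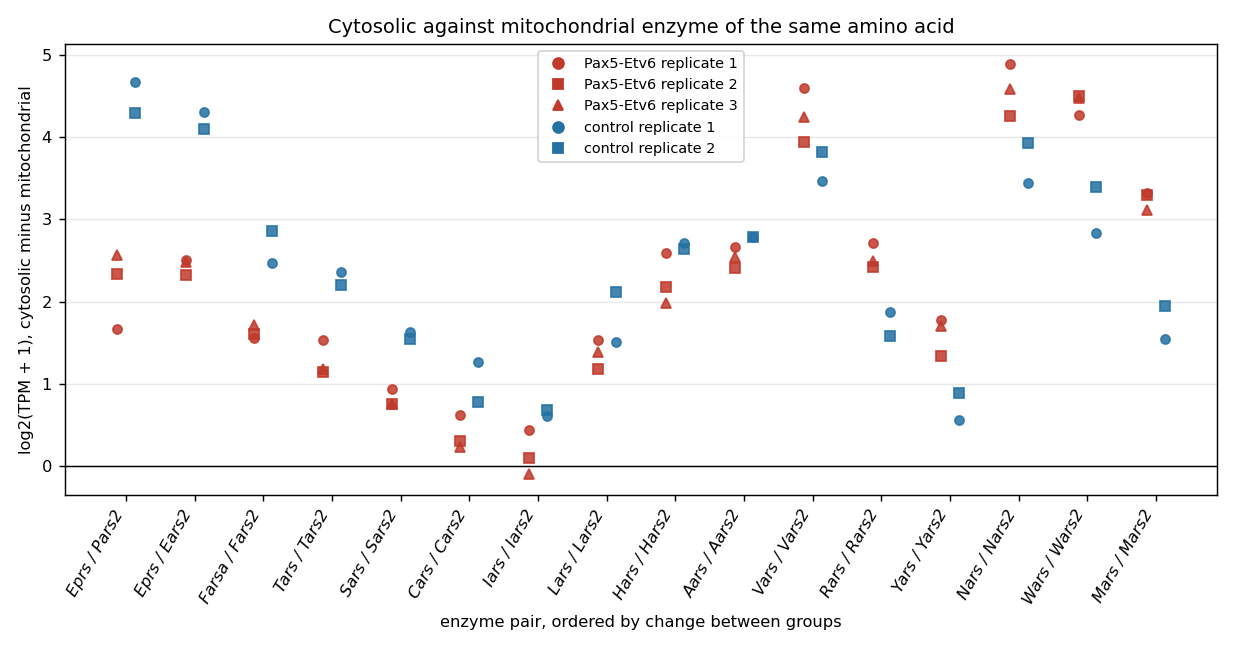
Difference of log2(TPM + 1) between the cytosolic and the mitochondrial enzyme of the same amino acid, 1 point per library, ordered by the change between groups. Pairs at the left (Eprs with Pars2 and Ears2) are lower in Pax5-Etv6 B-ALL, and pairs at the right (Nars, Wars and Mars with their counterparts) are higher.

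Other genes of mitochondrial charging are the factors that make formylated methionine and glutamine tRNAs. Of these 4 genes 2 were called lower (50.0%, against 29.7% of all tested genes) and none higher (median -0.43). Gatc, a subunit of the glutamine amidotransferase, had 21.9, 25.0 and 31.2 TPM against 117 and 132 TPM (-2.23 ± 0.20, adjusted p = 0.000671). The subunit Pet112, also named Gatb, had 21.6, 20.5 and 20.4 TPM against 35.4 and 33.4 TPM (-0.70 ± 0.18, adjusted p = 0.0185). The call of Pet112 was lost without Pax5-Etv6 replicate 2 (0.0851) or 3 (0.0625) or control replicate 1 (0.0617). Their partner subunit Qrsl1 was not called (40.3, 47.2 and 55.8 against 51.3 and 50.7 TPM), and the formyltransferase Mtfmt was not called either (adjusted p = 0.672).

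Genes that process and modify tRNA were called lower in most cases. Of these 48 genes 30 were lower (62.5%, against 29.7% of all tested genes) and 2 higher (median -1.02). The pseudouridine synthase Pus7 had 25.5, 35.6 and 29.9 TPM against 293 and 287 TPM (-3.23 ± 0.18, adjusted p = 0.000391), and Pus3 fell by 2.23 (adjusted p = 0.00206). Rpp21, of ribonuclease P, and Tsen54, of the splicing endonuclease, were the 2 called higher (1.25 ± 0.42 and 0.87 ± 0.21, adjusted p = 0.0449 and 0.0141). The call of Rpp21 was lost when any library but control replicate 2 was left out (0.0542 to 0.0885), with no filter (0.0964) and with no trend (0.0645). Of 21 genes of RNA polymerase III, which transcribes tRNA genes, and its factors, 11 were lower (52.4%) and 1 was higher (median -0.72). The subunit Polr3g fell by 2.19 (adjusted p = 0.00128) and the factor Gtf3c3 by 1.94 (adjusted p = 0.00121). The gene called higher was Maf1, the repressor of this polymerase, with 230.4, 297 and 278 TPM in Pax5-Etv6 B-ALL and 138 and 194 TPM in the controls (0.70 ± 0.20, adjusted p = 0.0257). Leaving out Pax5-Etv6 replicate 2 (0.0769) or 3 (0.0717) or control replicate 1 (0.131) ended this call, as did no filter (0.0504). Of 5 genes of tRNA delivery, Eef1e1 included, 2 were lower (40.0%) and none higher. Eef1a1, which brings charged tRNA to the ribosome, had 6331, 5858 and 6009 TPM against 11710.0 and 8530.0 TPM (-0.72 ± 0.23, adjusted p = 0.0376). This call ended without Pax5-Etv6 replicate 2 (0.127) or 3 (0.0935) or control replicate 1 (0.151), with no filter (0.322) and under median-of-ratios scaling (0.138) or rescaling (0.08).

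Of 8 genes around the sensing of uncharged tRNA, 7 were lower (87.5%, against 29.7% of all tested genes) and none higher (median -1.22). Eif2s1, the initiation factor subunit whose phosphorylation by Gcn2 slows initiation, fell by 1.86 and its partner subunit Eif2s2 by 2.11 (adjusted p = 0.000895 and 0.00127). Among 19 tested Atf4 response genes, 14 were lower (73.7%, against 29.7% of all tested genes) and none higher (median -1.28). Without control replicate 2 fewer were called lower. That fit does not cover the same genes, and Atf4, which it still tested, was no longer called (log2 fold change -0.33). With 1 control left, genes below 1 TPM in all Pax5-Etv6 libraries, such as Asns and Stc2, fail the filter. In that fit Ddit3 (log2 fold change 1.67) and Atf5, named after their values were seen, were called higher. In other alternatives at most 1 gene of this list was called higher: Ddit3 with the 5 TPM filter (0.0463), median-of-ratios scaling (0.0333), quantile normalization (0.034), rescaling (0.0458) and voom (0.0349), Trib3 without Pax5-Etv6 replicate 1 (0.0194) and Slc7a11 with no filter (0.00757). Atf4 itself had 260.2, 295 and 293.5 TPM in Pax5-Etv6 B-ALL and 355 and 434 TPM in the controls (-0.47 ± 0.15, adjusted p = 0.0397). It was no longer called in 10 of 16 alternatives, with adjusted p up to 0.123 without control replicate 2. Asns, which makes asparagine, was listed at 0 in all Pax5-Etv6 libraries, against 182 and 167 TPM, and the secreted factor Stc2 had 0.618, 0.184 and 0.0425 TPM against 37.8 and 22.4 TPM (-4.58 ± 0.36, adjusted p = 0.000539). Beside these, the asparagine enzymes Nars and Nars2 fell by 1.08 and 1.97. No synthetase was as low relative to its controls as Asns or Stc2.

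The deposited names of 7 members carry an overlap tag (Aimp2, Cars, Farsa, Farsb, Iars2, Mars and Yars). All 7 were called lower, against 29.7% of all tested genes. In the RefSeq annotation of GRCm38.p6 protein-coding genes overlap Mars (Ddit3), Farsb (Sgpp2), Iars2 (Rab3gap2) and Aimp2 (Eif2ak1). Members with no tag overlap protein-coding genes there too: Hars and Hars2 each other, Aars with Ddx19b, Wars with Wdr25, Rars2 with Orc3 and Aimp1 with Tbck. The Pax5-Etv6 libraries are described as strand-specific and this field is blank for the controls, so reads of overlapping neighbours may have been assigned differently in the 2 groups, which was not tested. Ddit3 had 32.6, 40.2 and 35.1 TPM against 10.6 and 26.5 TPM (1.05 ± 0.37, adjusted p = 0.0529), so its difference had the opposite sign to that of Mars and just missed the threshold; it was called higher in 6 of 15 alternatives that tested it. Without tagged genes, which leaves these untagged overlaps in, 10 of 15 cytosolic and 6 of 15 mitochondrial synthetases were lower.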

How the data were processed

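Polyadenylated RNA of 5 B-ALL samples was measured. The deposited values are TPM made by the authors, in 1 table per library that sums to 1000000, per the file headers and values. The submitters' processing notes name HTSeq 0.5.3, DESeq2 1.4.1 and, as the genome build, mm9, without saying what each was used for; the aligner and gene models are not stated there. The 2 chromatin immunoprecipitation samples were not analysed here. In all 16538 entries above 0 in 2 or more libraries the values were whole multiples of what 1 read is worth (tolerance 0.001), and these reads are lower bounds.

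Genotype set the groups, and replicates carry numbers by accession. Log2(TPM + 1) of the 11805 genes at 1 TPM or more in 2 or more libraries was fitted with limma 3.58.1 (R 4.3.3, eBayes with trend, no covariates, two-sided tests), with Benjamini-Hochberg adjustment over those genes and a threshold of 0.05. This scale understates the change of low genes. The members and lists were chosen with earlier results of these data known, so no list has a test. Values in every library are given for up to 6 called members with the largest change per direction and class, for the 3 pairs that change most, and for others added after their values were seen; related lists name up to 2 called genes per direction, and Atf4, Qrsl1, Mtfmt and Ddit3 were added. A planned protein comparison was not made. A gene of a related list is not reported here. As alternatives, the pseudocount was set to 0.1 or 5 TPM, the filter to none or 5 TPM, and the scaling to median of ratios, quantiles or TPM recomputed without the mitochondrially encoded and the 50 highest genes; limma was run without trend, with robust variance or as voom on recovered reads; and tagged genes or each library in turn were left out.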

Additional observations from a re-analysis of the deposited data

How the results depend on the processing

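Members, counts of calls, 6 named pairs and 5 list counts were recomputed under 16 alternatives; class sums, rank order, the other pairs and promoter counts were not. The count of cytosolic members called lower (15) ran from 10 (without tagged genes) to 15, and from 11 to 14 with a library left out; with voom 11 cytosolic and 7 mitochondrial members were lower. The mitochondrial count (7) ran from 5 to 7. Mitochondrial members called higher numbered 2 as reported, 0 with a pseudocount of 5 TPM or no trend, 1 with no filter or robust empirical Bayes, and 0 to 1 with a library left out. Cytosolic members called higher numbered 0 to 1 with a library left out, the 1 being Vars. Without tagged genes 0 scaffolds were called lower, since Aimp2 is tagged. With a library left out, 1410 to 2984 of all genes were called higher and 1954 to 3350.0 lower, the fewest without control B-ALL replicate 1.

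Members changed sign only where they were not called. Qars stood at 0.057 under median-of-ratios scaling, 0.056 under rescaling without the highest genes, 0.083 under quantile normalization and 0.097 with voom. Hars2 stood at 0.061 under quantile normalization and 0.050 with voom. With a library left out, Aars ran from -0.18 to 0.20, Qars from -0.14 to 0.11, Cars2 from -0.020 to 0.35, Ears2 from -0.015 to 0.069 and Hars2 from -0.27 to 0.077. The cause was not tested. Of 601 recomputed member values, 544 kept direction and side of the threshold, 41 lost their call, 1 gained one and 15 changed sign. Of 95 recomputed pair values 9 moved by more than the spread between libraries. Of 80 recomputed list counts 22 moved by over 1.5 times. All of these were from counts of 2 or fewer but for the lower Atf4 genes without control B-ALL replicate 2. In that fit genes below 1 TPM in every Pax5-Etv6 library were no longer tested, and Atf4, still tested, lost its call. RNA polymerase III genes called higher (1) ran from 0 to 3. The Farsb pair was added after seeing the data. No paired analysis was made, since the groups are leukaemias of different genotype and tissue and the labels link no library of 1 group to the other.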
